A study of Arabidopsis thaliana with 4 samples.

Results

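The BGLU genes of Arabidopsis thaliana encode beta-glucosidases of glycoside hydrolase family 1. They were followed here as the genes whose array annotation symbol is BGLU plus a number, that had a probe set of their own, and whose mean signal over the 4 arrays was at least 10 array units. This rule left 10 genes, among 9454 genes of the array that met the same signal filter with their own probe set. The members were BGLU15, BGLU16, BGLU25, BGLU28, BGLU40, BGLU42, BGLU44, BGLU45, BGLU46 and BGLU47. No value of the comparison between lines took part in the rule, but the members were chosen with earlier results of these data known.

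Transcripts were measured on Affymetrix ATH1 arrays, a short-oligonucleotide array of the Arabidopsis genome, with total RNA from inflorescence tips at growth stage 6.10. The groups were 2 arrays of tmm-1, which is mutant in TMM, a receptor-like protein gene of stomatal patterning, and 2 arrays of Col-3 gl1, the line it was set against. GL1 is a gene needed for leaf hairs, and the labels do not say whether the mutant line carries gl1 too. The sample titles give the control line as Col1g11. The levels of TMM and GL1, which could check these labels, were not analysed here, since no probe set is named for them in the annotation used. All plants grew in a chamber at 22 °C, 70% humidity and 16 h of light. Each array held a pool of tissue, numbered 1 or 2 in the labels and used here as the replicate number. The labels do not say that the pools came from separate plants, so p-values measure only spread between these pools, which may be technical. In the test used below this spread was taken mostly from a trend over all probe sets, and little from each gene's own values.

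Beta-glucosidases of this family cut a glucose from a small molecule. Plants store many hormones, phenolics, lignin precursors and defence compounds as inactive glucosides, and an enzyme of this kind releases the active part when it meets its substrate. Family members are known for hydrolysing glucosides of monolignols, flavonols, coumarins, glucosinolates and abscisic acid. Some are kept in the vacuole, the cell wall or bodies of the endoplasmic reticulum, apart from their substrates.

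None of the 10 BGLU genes was called different between tmm-1 and Col-3 gl1. The test was limma across 16960 probe sets on log2(signal + 10), with a call at a Benjamini-Hochberg adjusted p below 0.05. It called 0.613% of all probe sets tested, 104 in number, with 41 higher and 63 lower in tmm-1. At that share a count of 0 among 10 genes is near the background. When arrays were scaled to a common median the split over all probe sets was 31 higher and 80 lower. No BGLU gene had an unadjusted p below 0.05 either, against 8.81% of all probe sets tested. The smallest adjusted p of the family in limma was 0.772, for BGLU46, and the largest was 0.942, for BGLU25. In bulk tissue a smaller number of cells of a type and less RNA per cell cannot be told apart.

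**Figure D1:**
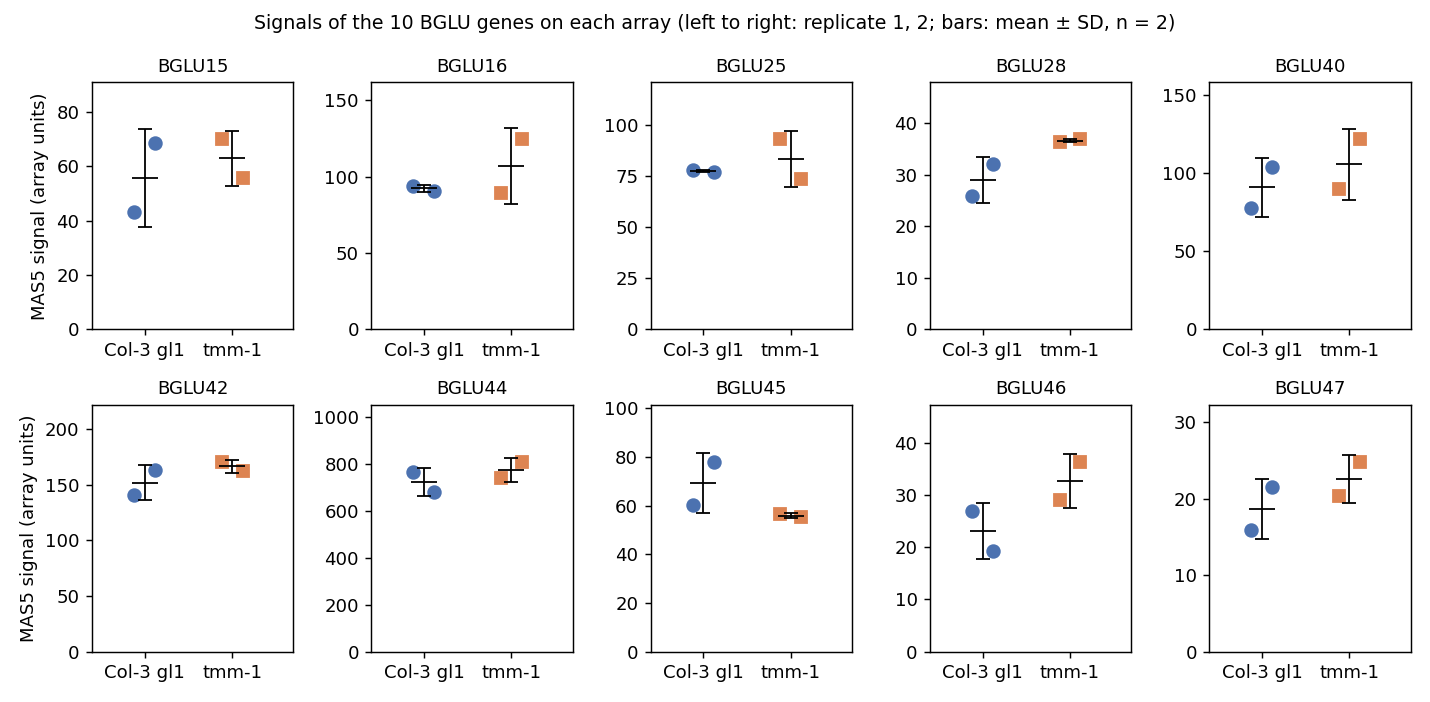
MAS5 signal in array units (y axis, from 0) of each of the 10 BGLU genes on the 2 Col-3 gl1 arrays (circles) and the 2 tmm-1 arrays (squares), with replicate 1 left of replicate 2 and bars for the mean ± SD (n = 2). In BGLU28 and BGLU46 both squares lie above both circles, in BGLU45 both lie below, and in the other 7 genes the lines overlap.

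BGLU45 (AT1G61810) and BGLU46 (AT1G61820) encode enzymes that hydrolyse glucosides of monolignols, the building blocks of lignin. BGLU45 gave 56.7 and 55.1 array units on replicates 1 and 2 of tmm-1, against 60.4 and 78.0 on Col-3 gl1 replicates 1 and 2. Both tmm-1 arrays were thus below both control arrays, and Col-3 gl1 replicate 2 stood highest. The log2 change of BGLU45 was -0.26 ± 0.20 (SE), with a 95% interval from -0.67 to 0.16 (limma, adjusted p = 0.781). It was the only member of the 10 with a change below 0.

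BGLU46 gave 29.0 and 36.4 array units in tmm-1, against 26.9 and 19.4 in Col-3 gl1. Both tmm-1 arrays lay above both control arrays, and the lowest value was on Col-3 gl1 replicate 2, the array on which BGLU45 was highest. The log2 change of 0.37 ± 0.28 was the highest estimate in the family, with an interval from -0.21 to 0.95 (limma, adjusted p = 0.772). On the scale of raw signal the mean was 32.7 ± 5.20 (SD, n = 2) in tmm-1 and 23.1 ± 5.32 in Col-3 gl1, a ratio of 1.41. The control value of 19.4 was under 21.2, the top signal seen on the 4 arrays among 27 probe sets for Bacillus genes that plants lack, which served as a yardstick for background.

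BGLU45 and BGLU46 are next to each other among the protein-coding genes of chromosome 1 in RefSeq (TAIR10.1). Their estimates had opposite signs, but neither was called and the difference between their changes was not tested. BGLU47 (AT4G21760), which is grouped with these genes by sequence, had 22.6 ± 3.19 in tmm-1 and 18.7 ± 3.92 in Col-3 gl1. The lines overlapped, and 2 of its 4 values were at or under 21.2. Its log2 change was 0.19 ± 0.33, with the widest interval of the family, from -0.49 to 0.86.

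BGLU28 (AT2G44460) encodes an enzyme that helps to break down glucosinolates when sulfur is short. It gave 36.4 and 36.9 array units in tmm-1, against 25.8 and 32.1 in Col-3 gl1. Both tmm-1 arrays were above both control arrays, and the 2 tmm-1 values differed far less than the control values did. The log2 change was 0.26 ± 0.26, with an interval from -0.26 to 0.79 (limma, adjusted p = 0.841).

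BGLU15 (AT2G44450), whose product hydrolyses flavonol glycosides, lies beside BGLU28 on chromosome 2, and BGLU29 is the next gene after BGLU28. BGLU15 had 70.0 and 55.8 in tmm-1 and 43.0 and 68.5 in Col-3 gl1, so that the lines overlapped. Col-3 gl1 replicate 1 was the lowest array for both neighbours. The difference between the 2 control arrays of BGLU15, 0.57 on the log2 scale, was the largest between replicates of any member, against a difference between lines of 0.17 ± 0.22. Without Col-3 gl1 replicate 1 the estimate for BGLU15 changed sign, to -0.11.

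BGLU44 (AT3G18080), an enzyme with activity on mannosides as well as glucosides in vitro, had the highest signals of these probe sets, at 774 ± 50.2 in tmm-1 and 722 ± 58.9 in Col-3 gl1. Signals of different probe sets are not comparable levels, so no order of expression is drawn from them. The lines overlapped, and the log2 change was 0.10 ± 0.14, with the narrowest interval of the family, from -0.19 to 0.39. BGLU42 (AT5G36890), known from roots for coumarin glucoside hydrolysis and for resistance induced by soil bacteria, had 166 ± 5.89 in tmm-1 and 152 ± 15.4 in Col-3 gl1. Its log2 change was 0.13 ± 0.16, and tmm-1 replicate 2 and Col-3 gl1 replicate 2 were nearly equal, at 162.1 and 162.6.

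BGLU40 (AT1G26560), BGLU16 (AT3G60130) and BGLU25 (AT3G03640) completed the family. BGLU40 had 105 ± 22.7 in tmm-1 and 90.7 ± 18.8 in Col-3 gl1, with replicate 2 above replicate 1 in both lines. BGLU16 had 89.3 and 124 in tmm-1 and 93.8 and 90.7 in Col-3 gl1, so its higher tmm-1 mean came from tmm-1 replicate 2. BGLU25 had 93.1 and 73.7 in tmm-1 and 77.9 and 77.2 in Col-3 gl1, and here tmm-1 replicate 1 stood apart. The log2 changes were 0.20 ± 0.19 for BGLU40, 0.18 ± 0.19 for BGLU16 and 0.09 ± 0.19 for BGLU25. Left without that 1 tmm-1 array, BGLU16 was at -0.04 and BGLU25 at -0.07. BGLU40 was at -0.01 without tmm-1 replicate 2.

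**Figure D2:**
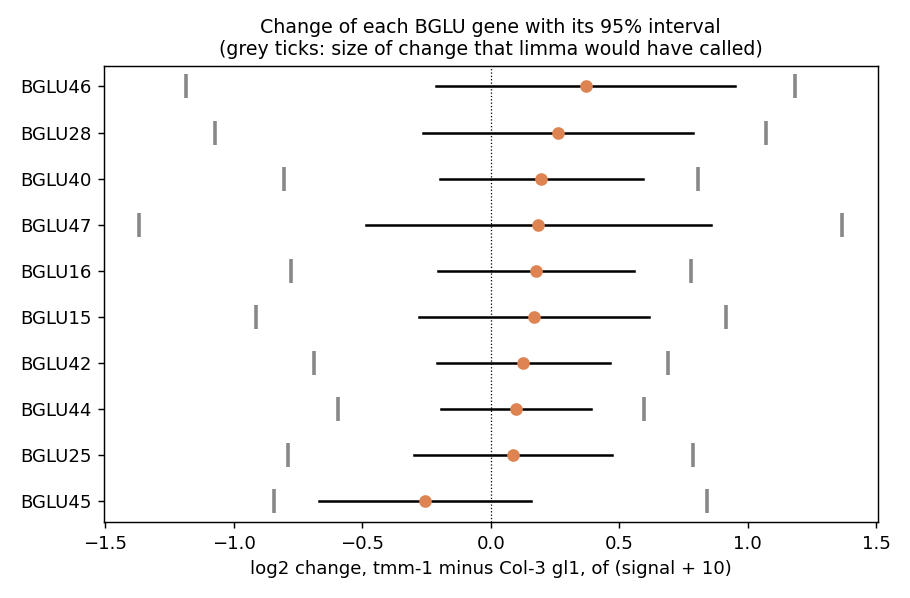
Log2 change (tmm-1 minus Col-3 gl1, x axis) of signal + 10 for each BGLU gene, with points for the limma estimate, lines for its 95% interval and grey ticks for the change at which limma would have called the gene. All 10 intervals hold 0, and every point lies inside its ticks, which run from 0.60 for BGLU44 to 1.37 for BGLU47.

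All 10 intervals held 0, and with a pseudocount of 10 none reached a log2 change of 1 or -1. Their outer bounds were -0.67, for BGLU45, and 0.95, for BGLU46. For BGLU15, BGLU28, BGLU46 and BGLU47 this depended on the setting. With a pseudocount of 1 the upper bound was 1.25 for BGLU46 and 1.21 for BGLU47. It was 1.06 for BGLU46 with no signal filter. For BGLU46 it was 1.37 without Col-3 gl1 replicate 1 and 1.09 without tmm-1 replicate 1. Without Col-3 gl1 replicate 2 it was 1.33 for BGLU47, 1.13 for BGLU28 and 1.03 for BGLU15. The change needed for a call, at the largest p that limma called in these data, was 0.60 for BGLU44, 0.69 for BGLU42 and 0.78 for BGLU16. It was 1.07 for BGLU28, 1.19 for BGLU46 and 1.37 for BGLU47. Estimates under these sizes would thus not have been called with 2 arrays per line, and the missing calls do not show that the genes were alike in both lines.

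Across the family, estimates ranged from -0.26 to 0.37, with a median of 0.17 beside 0.03 over all probe sets tested. They were above 0 in 9 of 10 genes, beside 55.0% of all probe sets tested. The median absolute change was 0.18, beside 0.17 over all. For 8 of the 10 genes the change was no larger than the bigger of the 2 differences between replicates, beside 74.6% of all probe sets tested. The exceptions were BGLU28 and BGLU46, and neither was called. The lines did not overlap in 3 of 10 genes, beside 38.3% of all probe sets tested. By direction, tmm-1 lay above in 2 genes, beside 21.5% of all, and below in 1, beside 16.8%. These non-overlap counts were near the background.

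**Figure D3:**
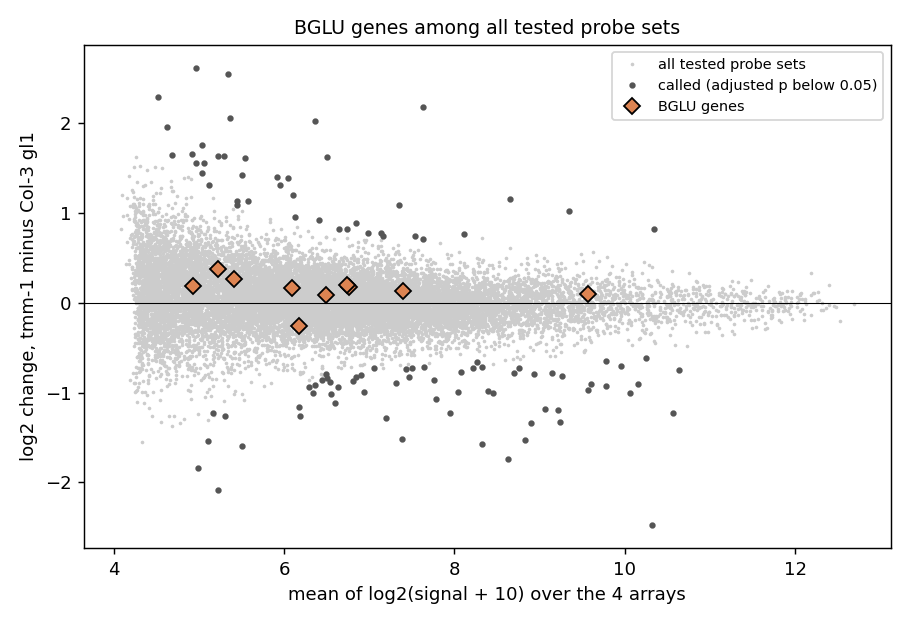
Log2 change (tmm-1 minus Col-3 gl1, y axis) against the mean of log2(signal + 10) over the 4 arrays (x axis) for the 16960 probe sets tested (light points), the 104 called (dark points) and the 10 BGLU genes (diamonds). The BGLU genes lie between -0.26 and 0.37, inside the cloud of probe sets that were not called.

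Estimates moved with single arrays. On tmm-1 replicate 2 stood the highest of the 4 values for 6 of 10 BGLU genes, beside 35.3% of all probe sets tested. That array also had a higher dim end than the others, its 10th percentile of signal being 3.06, while the other 3 arrays had 1.54 to 1.60. On Col-3 gl1 replicate 1 stood the lowest value for 5 of 10, beside 28.2% of all. The family's median was 0.12 without tmm-1 replicate 2 and 0.07 without Col-3 gl1 replicate 1. It was 0.22 without tmm-1 replicate 1 and 0.21 without Col-3 gl1 replicate 2. The part of these arrays in the common sign was not tested further. With an array left out, 6 genes kept their sign throughout, namely BGLU28, BGLU42, BGLU44, BGLU45, BGLU46 and BGLU47. Median signals of the arrays were 40.7 to 45.5, and the actin control's 3' signal over its 5' signal, a sign of RNA quality, was 2.29 and 2.47 on the tmm-1 arrays against 2.25 and 2.39 on the Col-3 gl1 arrays, so the lines overlapped in it.

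**Figure D4:**
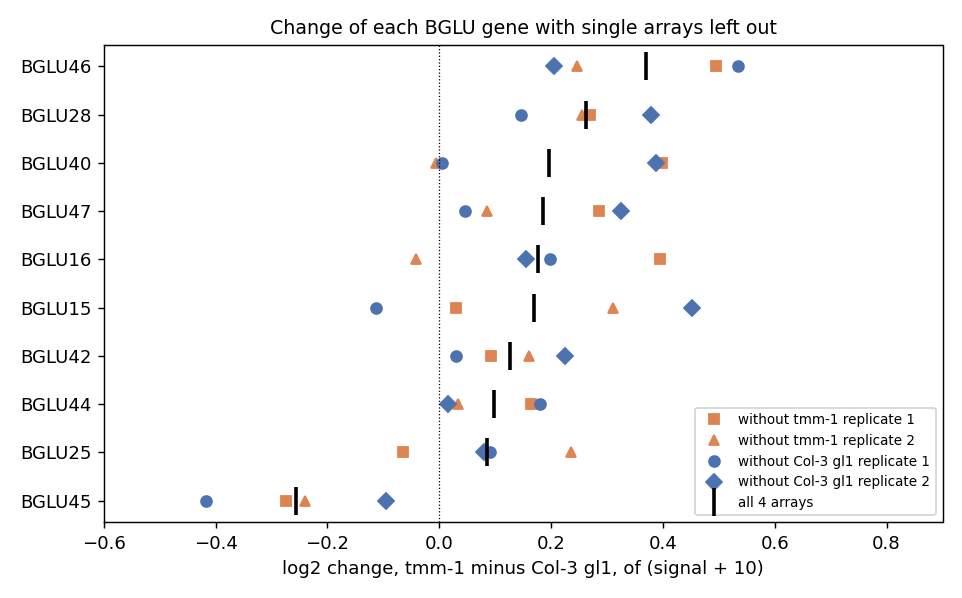
Log2 change (tmm-1 minus Col-3 gl1, x axis) of each BGLU gene with all 4 arrays (black ticks) and with 1 array left out (orange for a tmm-1 array, blue for a Col-3 gl1 array). BGLU15, BGLU16, BGLU25 and BGLU40 cross 0 when 1 array is left out, and the other 6 genes stay on their side.

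A further 10 BGLU genes had their own probe set but were under the filter, namely BGLU19, BGLU24, BGLU27, BGLU29, BGLU31, BGLU32, BGLU33, BGLU36, BGLU41 and BGLU43. Among them is BGLU33, a vacuolar enzyme that frees abscisic acid from its glucose ester. Their mean signals ran from 3.09 to 7.99, and all 40 of their values were under the Bacillus yardstick of 21.2, the highest at 14.3. The nearest gene outside the filter was BGLU43, at a mean of 7.99, and the nearest inside was BGLU47, at 20.7. BGLU43 and BGLU44 are neighbours on chromosome 3, as are BGLU27 and BGLU16.

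In 3 of these 10 dim genes both tmm-1 values lay below both control values, beside 8.16% of all probe sets under the filter. On tmm-1 replicate 1 stood the lowest value for 8 of the 10, beside 29.4% of those probe sets. BGLU36 had 0.670 and 1.69 in tmm-1 and 7.45 and 12.9 in Col-3 gl1. BGLU41 had 1.00 and 2.01 against 13.6 and 6.46, and BGLU32 had 0.370 and 1.85 against 4.14 and 8.57. No fold is given, since both lines were under the yardstick. With no signal filter, limma called 0 of the 20 genes with their own probe set, against 0.0747% of all probe sets, and 3 had an unadjusted p below 0.05, against 7.2% of all in that fit. These p-values were 0.00762 for BGLU36, 0.0152 for BGLU41 and 0.0395 for BGLU32. The smallest adjusted p was 0.507.

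**Figure D5:**
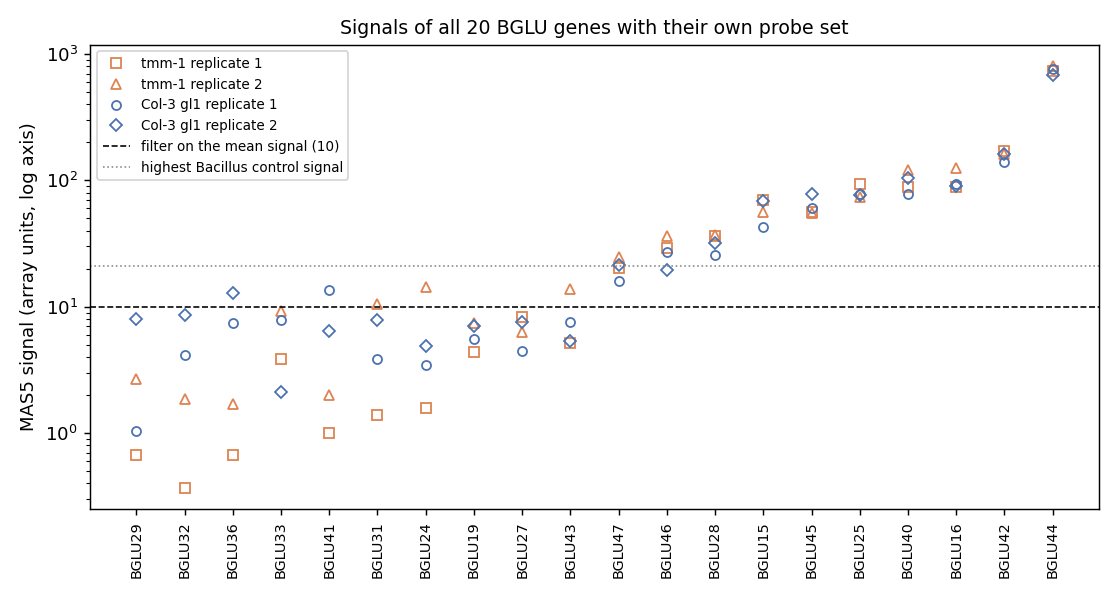
MAS5 signal (y axis, log scale, array units) of the 20 BGLU genes with their own probe set on the 4 arrays, ordered by mean signal, with the filter at 10 (dashed) and the highest Bacillus control signal of 21.2 (dotted). The 10 genes on the left have means from 3.09 to 7.99 and no value above the dotted line, and the 10 members start at BGLU47.

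RefSeq has 47 genes with a BGLU number as symbol or synonym, of which 24 were in the array annotation used and 23 were not analysed here. BGLU21 and BGLU22, which hydrolyse the coumarin glucoside scopolin in roots, share 1 probe set, whose 4 values ran from 0.513 to 7.48. PYK10 (AT3G09260), the main beta-glucosidase of endoplasmic reticulum bodies in roots, is BGLU23 by synonym. It had 3.81 and 21.1 in tmm-1 and 20.7 and 13.4 in Col-3 gl1, all at or under the yardstick, and was not called (limma, adjusted p = 0.871). ATA27 (AT1G75940), BGLU20 by synonym and named after seeing the annotation, was under the filter, with 0.936 and 8.29 in tmm-1 and 0.479 and 1.22 in Col-3 gl1.

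Related genes were looked at in 9 lists with 166 entries. The lists covered glucosinolates, flavonoids, monolignols, coumarins, abscisic acid turnover, endoplasmic reticulum bodies, sulfur limitation, dark-inducible genes and family members under other symbols, PYK10 among them. Of these, 26 genes had a named probe set. The signal filter kept 17 of them. Limma called 0 of the 17, beside 0.613% of all probe sets tested. An unadjusted p below 0.05 was found for 2 of the 17, beside 8.81% of all, so both counts were near the background. These 2 were GTR2 and UGT78D2. GTR2 (AT5G62680), a glucosinolate transporter gene, had 182 and 196 in tmm-1 and 141 and 134 in Col-3 gl1. Its log2 change was 0.43 ± 0.16 (limma, adjusted p = 0.374). UGT78D2 (AT5G17050), which puts a glucose on flavonols and anthocyanidins, had 116.1 and 115.5 in tmm-1 and 71.0 and 91.0 in Col-3 gl1, a log2 change of 0.48 ± 0.18 (limma, adjusted p = 0.380). For both genes, which were named for their small p, the lines did not overlap, as in 38.3% of all probe sets tested.

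By list, the 3 tested glucosinolate genes had changes from -0.10 to 0.43, and UGT74B1, a glucosyltransferase of glucosinolate synthesis, was at 0.18 ± 0.19. The 5 flavonoid genes ran from 0.01 to 0.48, with DFR, an enzyme of anthocyanin synthesis, at 0.37 ± 0.24. The 4 monolignol genes ran from -0.22 to 0.15, with HCT, an enzyme of lignin precursor synthesis, at 0.15 ± 0.16. In that list UGT72E1, a glucosyltransferase gene, was at -0.22 ± 0.25. UGT71C5, which makes the glucose ester of abscisic acid, was the 1 tested gene of its list, at -0.23 ± 0.20. Of the 3 tested genes tied to endoplasmic reticulum bodies, all jacalin-related lectins, JAL33 was at 0.88 ± 0.44 and JAL23 at 0.18 ± 0.15. JAL33 had 12.1 and 34.2 in tmm-1 and 3.30 and 11.6 in Col-3 gl1. Without tmm-1 replicate 1, which left 1 tmm-1 array, its log2 change was 1.38. Both control values and 1 tmm-1 value of JAL33 were under the yardstick of 21.2, so the size of its change follows the pseudocount. The single listed coumarin gene with a probe set, AT3G13610, was under the filter, and the sulfur limitation and dark-inducible lists had no named probe set.

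Markers of the tissue could be checked only in small part. Of 20 flower and shoot meristem markers, 2 had a named probe set, CLV3 and UFO, and both were at or near 0, with no value above 4.35. The other markers of that list were not analysed here. Summed marker signals were 0.484 to 10.8 for the single tapetum and anther gene AMS, of 20 listed, with 1.04 and 10.8 in tmm-1 and 0.484 and 2.45 in Col-3 gl1. The 2 of 9 root markers, EXPA7 and EXPA18, summed to 9.89 and 59.7 in tmm-1 and 16.1 and 12.5 in Col-3 gl1. On tmm-1 replicate 2 EXPA18 stood at 46.3, against 4.21 to 8.27 on the other arrays. EXPA7 did not set that array apart in the same way. It stood at 13.4 there and 11.9 on Col-3 gl1 replicate 1, with 3.93 on tmm-1 replicate 1 and 4.27 on Col-3 gl1 replicate 2. The 2 of 10 guard and myrosin cell markers, FAMA and CHX20, summed to 62.2 and 77.1 in tmm-1 and 93.8 and 76.4 in Col-3 gl1. The 2 of 8 markers of senescing leaf, SAG29 and WRKY53, summed to 36.7 and 31.1 in tmm-1 and 25.4 and 18.2 in Col-3 gl1. Most of this sum was WRKY53, at 34.3 and 26.0 against 21.4 and 16.1, which was not called (limma, adjusted p = 0.700). SAG29 was under the filter and overlapped, at 2.38 and 5.03 in tmm-1 and 3.97 and 2.12 in Col-3 gl1. The part of other cell types in the BGLU values was not tested.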

How the data were processed

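Values deposited by the authors are array intensity on a linear scale, summarised per probe set. The software named in the submitters' processing notes is MAS5 and GCOS. The 2% trimmed mean was 100.0 on all 4 arrays, so they were not scaled again. Versions, parameters and detection calls are not given in the sources used here. The table held 22810 probe sets, and 64 array controls were left out of the tests. Probe sets with a mean signal of at least 10 were tested on log2(signal + 10), which understates changes of dim genes, with limma 3.58.1 in R 4.3.3 (lmFit, eBayes with an intensity trend), two-sided. The prior held 23.6 of 25.6 degrees of freedom, so standard errors rest mostly on the trend over all probe sets. With 2 arrays per line the smallest p of an exact two-sided permutation is 0.333, so limma alone was used. The model was tested on simulated data.

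Genes were named from the platform annotation and matched to RefSeq (TAIR10.1) by Entrez ID, and all 10 members matched. Each had 1 own probe set. Named genes were all members, with all 4 values where the lines did not overlap, and called list genes or the 2 with the smallest p in each list. Values of all 4 arrays for other genes, and the naming of dim genes, were added after their values were seen. The members and lists were chosen with earlier results of these data known. The labels do not say whether arrays of the same pool number are paired, and the reported fit did not pair them. For arrays of the same number, deviations from the line means had a correlation of 0.03 over the probe sets tested. That value does not settle whether the pools were handled together. Alternatives were other pseudocounts, scalings, filters and variance models, a block for the pool, and leaving out each array.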

Additional observations from a re-analysis of the deposited data

How the results depend on the processing

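The 0 calls among the BGLU genes held in all 13 alternatives run, and 0 of 128 estimates passed the threshold. The family's median log2 change, 0.17 with all arrays, moved by less than 0.15, the SD between replicates of the members' median on an array. That SD is nearly as large as the 0.17 itself, so a move smaller than it does not show a stable median. The median change was 0.09 with scaling to the median and 0.07 to 0.22 with single arrays left out. Of the 128 estimates 4 changed sign, each with 1 array left out. The ranges were -0.11 to 0.45 for BGLU15, -0.0416 to 0.39 for BGLU16, -0.065 to 0.24 for BGLU25 and -0.0052 to 0.40 for BGLU40. Over all probe sets, 104 calls became 17 with no signal filter and 0 with no intensity trend, and 191 when the pool entered as a replicate block, which changed no BGLU call. They ranged from 80 to 572 with an array left out, the 572 without tmm-1 replicate 1, where the lone array is taken to have the other line's spread. The cause was not tested. Among the 17 list genes the call changed only for JAL33, without tmm-1 replicate 1, at a log2 change of 1.38. That is the same fit that gave the most calls over all probe sets. The mean over all own probe sets was not run as a separate setting, since each tested BGLU and list gene had only 1. With a filter of 30, BGLU46 and BGLU47 were too dim to be tested. The number of arrays, and signals near the Bacillus controls for BGLU46 and BGLU47, limit the precision.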
